A study of Mus musculus with 10 samples.

Results

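Kidneys of the mice numbered 612, 614, 618 and 619 were compared with kidneys of the mice numbered 650, 652, 657, 658, 661 and 663, taking the animal number from each sample's title. The lower range holds 4 of the 10 animals (TG 614, TG 619, WT 612 and WT 618) and the higher range 6 (TG 652, TG 657, TG 661, WT 650, WT 658 and WT 663). TG animals carry human WT FGF23 behind what the labels call a 1 alpha col 1 promotor, a collagen promoter known for activity in bone-forming cells, and WT animals are littermates without it. All mice were on the C57Bl strain and 8 weeks old, and each kidney gave 6 ug of total RNA for 1 Affymetrix MG_U74Av2 array of its own. No treatment separates the ranges in the labels, and no source used here gives what the numbers stand for (litter, cage, day or hour of collection). The comparison asks how far kidneys of the same genotypes differ by animal number, and in which functions.

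Expression was read as log2 values per probe set, and a probe set was tested when its value was over 4, called the floor here, on at least 5 of the 10 arrays. The floor is a filter and not a limit of detection. Between 53.0% and 57.0% of probe sets lay over it on each array, and arrays correlated at 0.980 to 0.998. The array number limits the precision. By Xist the females were TG 614 and WT 612 in the lower range and TG 652 and WT 650 in the higher range, so sex was balanced over genotype in both. The labels do not say whether animals of 1 group came from separate litters or were handled together. The p-values therefore set a difference against the spread between these animals only.

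In mammals the circadian clock is a loop in which the transcription factors CLOCK and BMAL1 (encoded by Arntl) bind E-boxes and drive their own repressors, the period and cryptochrome genes, and the nuclear receptors REV-ERB. The PAR bZIP factors DBP and TEF are made under E-boxes and pass the rhythm on through D-boxes to output genes. In the kidney the clock paces transport and metabolism over the day, and Dbp and Per genes run in opposite phase to Arntl.

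In the clock genes Dbp, Per2, Tef, Arntl and Clock the ranges lay apart. Dbp (probe set 160841_at, chromosome 7), the PAR bZIP output factor, read 9.95 and 9.79 in TG and 10.25 and 9.98 in WT animals of 612 to 619, against 6.72, 7.65 and 8.06 in TG and 6.76, 8.17 and 7.16 in WT animals of 650 to 663. In either genotype the ranges lay apart. Dbp was 5.96-fold higher in 612 to 619, a log2 difference of 2.57 ± 0.31 (SE, limma moderated test with genotype in the fit, adjusted p = 0.00885). Per2, a period repressor of the loop, read 6.30 and 6.10 in TG and 6.97 and 6.25 in WT animals of 612 to 619, against 5.51, 4.49 and 4.75 in TG and 4.33, 5.43 and 5.14 in WT animals of 650 to 663. Its lowest value in 612 to 619 lay above its highest in 650 to 663, and it was 2.76-fold higher (1.46 ± 0.27, adjusted p = 0.0287). Tef, another PAR bZIP factor, read 9.57 and 9.55 in TG and 10.09 and 10.13 in WT animals of 612 to 619, against 9.12, 8.96 and 9.11 in TG and 8.67, 9.26 and 9.09 in WT animals of 650 to 663. The ranges did not overlap, both WT animals of 612 to 619 lay above both TG animals of that range, and Tef rose by 0.80 ± 0.15 (adjusted p = 0.0305). Arntl, which encodes BMAL1, read 3.35 and 3.28 in TG and 3.55 and 3.37 in WT animals of 612 to 619, against 4.61, 5.87 and 4.02 in TG and 5.35, 4.05 and 4.71 in WT animals of 650 to 663. All 4 animals of 612 to 619 lay under the floor and all 6 of 650 to 663 above it, so that the ranges did not overlap, yet the difference of -1.38 ± 0.34 missed the threshold (adjusted p = 0.0554; 0.0329 once the model held sex). Raising every value under the floor to 4 gave a difference of -0.77. Clock, the partner of BMAL1, fell by 0.46 ± 0.11 (adjusted p = 0.0474).

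**Figure D1:**
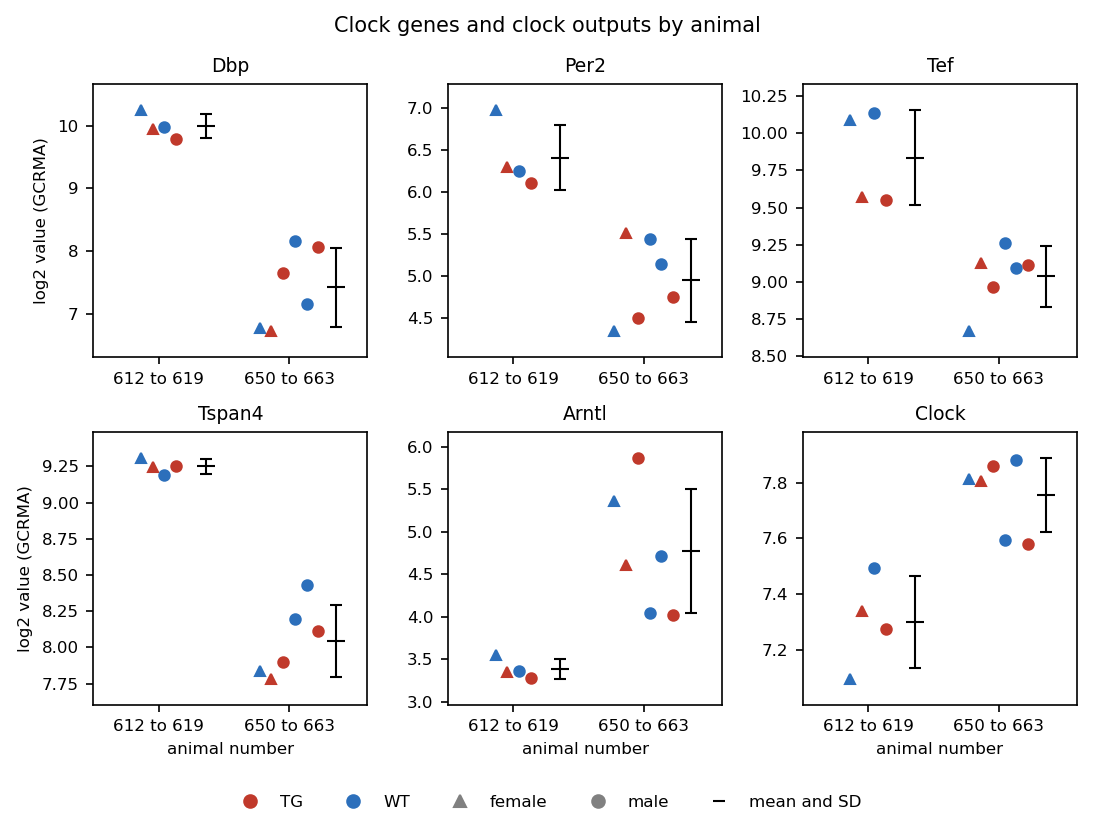
Log2 values of 6 clock genes and clock outputs in each animal, with animals 612 to 619 left of animals 650 to 663 in every panel, TG in red, WT in blue, triangles for females, circles for males, and black bars for the mean and SD of 4 and 6 animals. Dbp, Per2, Tef and Tspan4 lie higher and Arntl and Clock lower in 612 to 619, and in none of the 6 panels do the ranges overlap.

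Across the whole array the ranges differed in many more genes than those of the clock. Of 6814 tested probe sets 245 (3.6%) passed an adjusted p of 0.05, with 93 (1.36%) higher and 152 (2.23%) lower in 612 to 619. The ranges did not overlap for 473 probe sets (6.94%), of which 184 lay higher and 289 lower in 612 to 619. An unadjusted p under 0.05 was met by 1589 probe sets (23.3%). Counted once per gene, by the probe set with the highest mean, 167 of 5295 genes (3.15%) passed, with 71 (1.34%) higher and 96 (1.81%) lower, and 359 (6.78%) did not overlap. At least 2-fold changes numbered 11 upward and 36 downward among the 245. In the same fit TG differed from WT in 121 probe sets (1.78%), so the animal number went with more calls than the transgene did. The difference between the 2 counts was not tested. The median difference over all tested genes was -0.01, and 48.1% of genes lay higher in 612 to 619.

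The count depends on which animals enter. With sex in the model 727 probe sets passed, 305 higher and 422 lower. Leaving out 1 animal gave 10 without TG 619, 18 without WT 612, 28 without WT 658, 28 without WT 663, 31 without TG 657, 94 without TG 661, 130 without TG 614, 156 without TG 652, 210 without WT 650 and 328 without WT 618. An exact permutation of the range within genotype, adjusted over all probe sets, called 0, with a smallest adjusted p of 0.115. It gave 1377 probe sets an unadjusted p under 0.05. Its 100 assignments allow no p under 0.01, which 595 of the 6814 probe sets reached. With such a limit, passing the adjustment over all probe sets was hardly possible, so the 0 says little about the 245 calls. Of the 44 called genes named here, 4 (Dbp, Tspan4, Ndrg1 and Plxnd1) passed in all 10 fits with 1 animal left out, 12 passed in at least 5, and 3 (Fcgr2b, Ccnd3 and Ngef) passed in 0. Where a gene is said below to have passed in a number of fits, these 10 are meant. TG 619 or WT 612 was the animal whose loss gave the highest p for each of the 44.

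**Figure D2:**
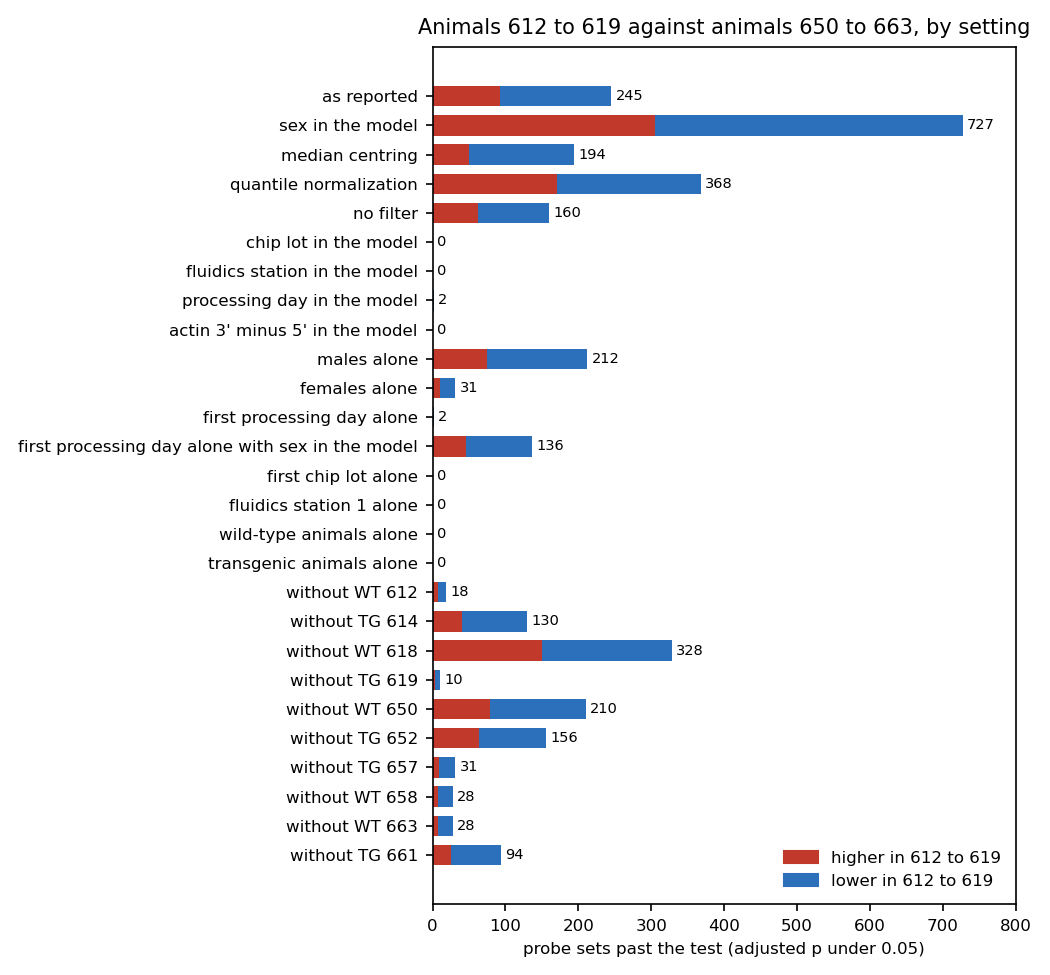
Number of probe sets past an adjusted p of 0.05 between animals 612 to 619 and animals 650 to 663 under each setting (x axis, count from 0), with those higher in 612 to 619 in red and those lower in blue. The count is 245 as reported, 727 with sex in the model, between 10 and 328 with 1 animal left out, and 0 to 2 with chip lot, fluidics station, processing day or the actin difference in the model.

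Per the file headers, the ranges also differ in how the arrays were run. All 4 arrays of 612 to 619 came from 1 chip lot together with WT 650, and all 4 ran on fluidics station 1 with WT 663 and TG 661. The 4 remaining arrays of 650 to 663 ran on station 2. On the first processing day 4 arrays of each range were run, but each range had its own station, so there station and range cannot be told apart. WT 663 followed 4 days and TG 661 13 days after the first day. Within station 1, where 4 animals meet 2, 0 probe sets passed and 876 had an unadjusted p under 0.05, with Dbp at a difference of 2.38. Within the first chip lot, where WT 650 stands alone for its range, 0 passed, 424 had an unadjusted p under 0.05, and Dbp differed by 3.35. On the first day alone 2 passed, and 136 with sex in the model. With lot or station in the model 0 passed, with 594 and 986 at an unadjusted p under 0.05, and with day 2 passed. The fit with day is the same check as the first day alone, because each later day holds 1 array. The fit with station gave the same differences as station 1 alone. With lot in the model 8 of the 44 called genes named here shrank by over 1.5 times and 4 grew by as much. The 8 were Nt5e (-1.03), Tmem250-ps (0.44), Slc6a20b (-0.41), Iigp1 (0.57), Nsdhl (-0.60), Rab5if (-0.65), Hif1a (0.34) and Fam3c (0.61). The 4 were Tef (1.34), Per2 (2.25), Sox18 (-1.43) and Tfpi2 (-1.54). In station 1 the 2 animals of the higher range read 8.06 and 7.16 for Dbp, both below all 4 of 612 to 619.

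The RNA controls differed as well. Affymetrix arrays carry probe sets near the 3' and the 5' end of a few transcripts, and because labelling starts at the 3' end, the difference between them grows as RNA is shorter or labelling less complete. For actin the 3' minus 5' log2 difference was 2.17, 2.58, 3.35 and 2.90 in 612 to 619, against 1.82, 2.16, 1.97, 2.42, 1.95 and 2.0 in 650 to 663. Within each genotype every animal of 612 to 619 lay above every animal of 650 to 663. The means were 2.75 ± 0.50 against 2.05 ± 0.21 (SD, n = 4 and 6; exact two-sided permutation p = 0.01, adjusted p = 0.0275 over 11 measures). The smallest p that the 100 assignments within genotype allow is 0.01. For Gapdh the means were 1.0 ± 0.33 against 0.55 ± 0.18 (exact two-sided permutation p = 0.01, adjusted p = 0.0275 over 11 measures). For pyruvate carboxylase they were 6.04 ± 0.60 against 4.64 ± 0.78 (exact two-sided permutation p = 0.03, adjusted p = 0.055 over 11 measures), and WT 650 lay with the lower range at 6.19. The 5' probe set of pyruvate carboxylase lay under the floor in WT 612. The transferrin receptor, also among the 11 measures, went the other way, at 0.69 ± 0.09 against 0.98 ± 0.12 (exact two-sided permutation p = 0.01, adjusted p = 0.0275 over 11 measures). Its 3' and 5' probe sets read 2.62 to 4.0 over the 10 arrays, about the floor or under it. The transferrin receptor therefore gives no usable difference.

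The largest control difference was that of 18S ribosomal RNA, which carries no poly(A) tail and so is not a target of labelling from poly(A). The mean of its 3 probe sets was 9.25, 10.32, 10.90 and 10.61 in 612 to 619, against 8.06, 7.64, 7.90, 7.09, 7.44 and 7.42 in 650 to 663. The ranges lay apart by more than 1 log2 unit, with means of 10.27 ± 0.72 against 7.59 ± 0.35 (difference 2.68, exact two-sided permutation p = 0.01, adjusted p = 0.0275 over 11 measures). The spike-in transcripts BioB, BioC, BioDn and CreX, added in fixed amounts, differed by 0.05 to 0.11, with exact two-sided permutation p of 0.40 to 0.79. Controls outside the 11 measures were not tested. The probe set AFFX-MURINE_b1 read 11.80 to 12.69 in 612 to 619 and 11.09 to 11.73 in 650 to 663, without overlap. The 5' probe set of ThrX read 12.86 to 13.76 against 12.02 to 13.40, and that of TrpnX 12.26 to 13.39 against 11.98 to 12.97. That of LysX read 13.56 to 14.10 against 13.10 to 13.88, and that of PheX 12.87 to 13.66 against 12.39 to 13.40. The share of probe sets over the floor was 54.5% ± 0.65 in 612 to 619 and 54.7% ± 1.46 in 650 to 663 (exact permutation p = 0.73). With the actin difference as a covariate 0 of 6814 probe sets passed and 306 had an unadjusted p under 0.05. Of the 44 called genes named here, 11 shrank by over 1.5 times in that fit and 0 grew by as much. These were Ndufs4 (-0.16), Eng (0.21), Cldn2 (-0.89), Sdc4 (0.62), Pdia6 (-0.67), Ndufs1 (-0.26), Ngef (0.24), Tmem250-ps (0.46), Sox18 (-0.56), Habp2 (-0.78) and Rab5if (-0.63), as log2 differences. In that fit Dbp differed by 2.56, Ndrg1 by -1.30 and Pdia6 by -0.67 (adjusted p = 0.998, 0.336 and 0.998). Beyond these values, the part of RNA quality in the differences below was not tested. Fewer cells of a type and less RNA per cell cannot be told apart in whole kidney.

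**Figure D3:**
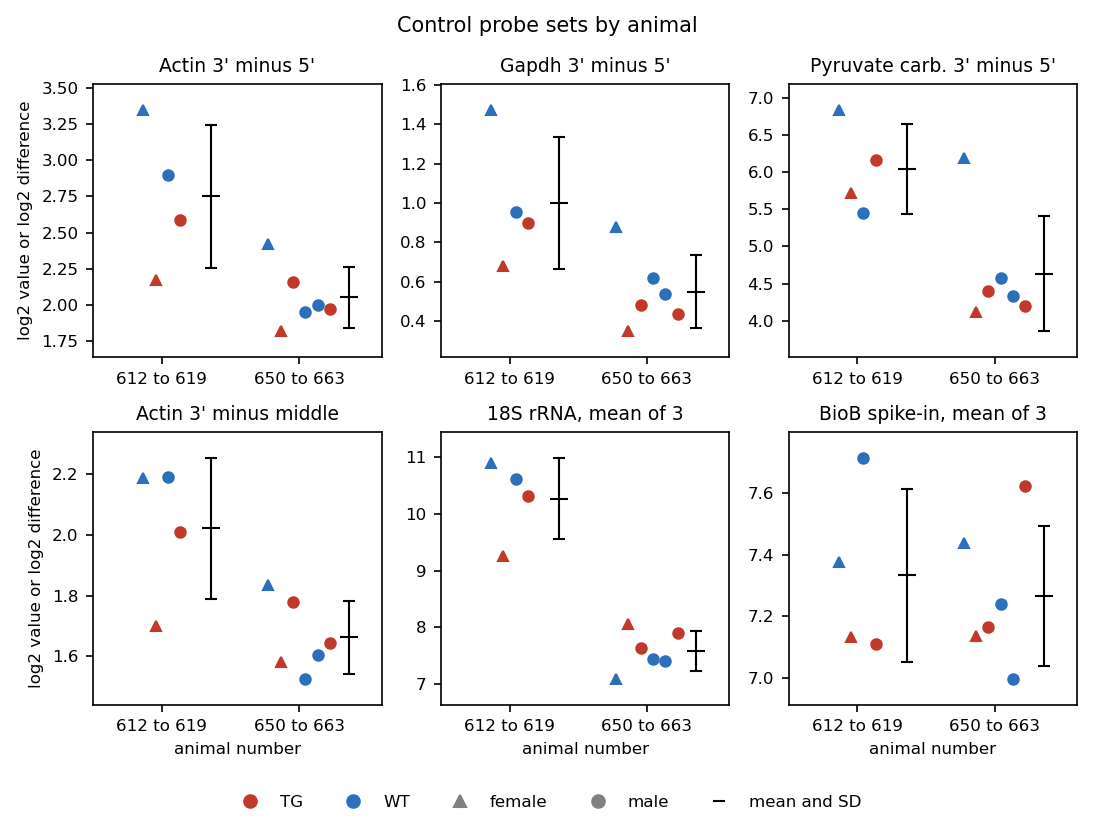
Control measures in each animal, with animals 612 to 619 left of animals 650 to 663, TG in red, WT in blue, triangles for females, circles for males, and black bars for the mean and SD of 4 and 6 animals. The y axis is a log2 difference for the actin, Gapdh and pyruvate carboxylase panels and a log2 value for 18S and BioB. The 18S panel shows the widest gap, at 10.27 ± 0.72 against 7.59 ± 0.35, and the BioB panel shows overlapping ranges.

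Among 13 tested clock outputs and PAR bZIP factors 3 rose (Dbp, Tef and Tspan4), beside 1.34% of all genes, 0 fell and 10 did not pass, with a median of 0.20. Dbp, Tef, Per2 and Arntl were given with the comparison as its marker genes, and the lists were chosen with earlier results known. The counts of this list and of the core clock list are therefore no test of them. Tspan4, a tetraspanin membrane protein (97473_at, chromosome 7), read 9.24 and 9.25 in TG and 9.31 and 9.19 in WT animals of 612 to 619, against 7.78, 7.90 and 8.12 in TG and 7.84, 8.20 and 8.43 in WT animals of 650 to 663. The 4 animals of 612 to 619 lay close together and the ranges did not overlap. Tspan4 was 2.3-fold higher (1.20 ± 0.12, adjusted p = 0.00411), and its highest p with 1 animal left out was 0.0299. Usp2, a deubiquitinase under clock control, was higher in both WT animals of 612 to 619 than in any of 650 to 663, while TG 614 at 10.08 lay below TG 652 at 10.24 (1.10 ± 0.30, adjusted p = 0.0722). The other Usp2 probe set differed by 0.60 (adjusted p = 0.239), with TG 652 at 10.18 above all 4 animals of 612 to 619. Nfil3, the repressor that competes with DBP at D-boxes, differed by -0.82 ± 0.36 (adjusted p = 0.204), with WT 663 at 6.53 and all other animals under 5. Per2 passed in 3 of 10 fits and Tef in 5 of 10.

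In the core clock list 9 of 14 measured genes were tested, with 1 higher (Per2), 1 lower (Clock) and 7 past neither way, and a median of 0.08. Of the 9, 3 did not overlap between ranges (Arntl, Clock and Per2), beside 6.78% of all genes, and the others overlapped. Npas2, Per3, Cry2, Csnk1e and Timeless were under the filter. Per1, the other period gene tested, differed by 1.45 ± 0.58 (adjusted p = 0.165), and TG 652 at 7.59 stood as high as the animals of 612 to 619 while TG 657 and WT 650 stood at 4.38 and 4.43. The REV-ERB genes Nr1d1 and Nr1d2, repressors of Arntl, differed by 0.97 ± 0.41 and 0.56 ± 0.17 (adjusted p = 0.188 and 0.0956). Of 16 tested transport and hormone receptor genes known to follow the clock in the kidney, 0 passed, 10 lay higher, 1 had an unadjusted p under 0.05 and the median was 0.14. The vasopressin receptor gene Avpr1a (-0.44 ± 0.16, adjusted p = 0.137) and Hsd11b2, which inactivates glucocorticoid in the collecting duct (0.30 ± 0.15, adjusted p = 0.247), came closest.

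Promoter letters are shown for the clock outputs that hold an E-box, the site of CLOCK and BMAL1. The RefSeq table (build GRCm38.p6) covers 250 bases before to 50 after each start and held an entry for 68 of the genes named here. The E-box was searched as CACGTG, which reads the same on both strands and overlapped no other motif searched in these windows. Counting any start of a gene, it was found at 8.09% of all genes of the table, 13.0% of the 4314 tested genes with an entry, 20.7% of the 58 higher genes with one and 8.86% of the 79 lower genes. Tef (chr15:81802423-81802722, plus strand) and Tspan4 (chr7:141476130-141476429, plus strand) each held 1, in capitals. No window of Dbp held these letters. A match describes the letters and is no evidence of binding.
Tef: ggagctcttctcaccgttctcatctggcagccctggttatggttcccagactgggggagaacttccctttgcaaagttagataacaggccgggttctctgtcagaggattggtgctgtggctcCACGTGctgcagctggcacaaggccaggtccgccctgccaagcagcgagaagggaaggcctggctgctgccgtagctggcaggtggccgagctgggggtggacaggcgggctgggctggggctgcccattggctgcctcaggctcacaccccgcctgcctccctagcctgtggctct
Tspan4: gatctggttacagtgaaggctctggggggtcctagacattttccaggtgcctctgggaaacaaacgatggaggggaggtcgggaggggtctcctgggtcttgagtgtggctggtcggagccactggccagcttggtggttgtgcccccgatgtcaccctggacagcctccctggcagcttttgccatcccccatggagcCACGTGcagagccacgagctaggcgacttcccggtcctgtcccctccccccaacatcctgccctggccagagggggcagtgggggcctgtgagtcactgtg

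With 1.34% of all genes called higher and 1.81% lower, 1 call in a list of this size is no result about that list, and list medians stand beside the -0.01 of all genes. Few genes of feeding and fuel use passed. Of 25 tested fasting and PPAR-alpha targets 0 passed, 4 had an unadjusted p under 0.05, and the median was -0.11. The closest were Acaa1a, a peroxisomal thiolase (0.37 ± 0.10, adjusted p = 0.0621), and Hadhb, a mitochondrial fatty acid oxidation subunit (-0.45 ± 0.16, adjusted p = 0.12). Pdk4, the fasting-induced kinase that shuts off pyruvate oxidation, read 7.80, 6.51, 7.22 and 6.28 in 612 to 619, against 6.93 to 9.82 with a median of 8.17 in 650 to 663. Its ranges overlapped and it did not pass (-1.27 ± 0.51, adjusted p = 0.17). The widest difference in the list, that of Cyp4a12b, a fatty acid hydroxylase more abundant in males, was -3.25 ± 1.55 (adjusted p = 0.242), or -1.89 with every value under the floor raised to 4, and the female values of 1.03 and 1.29 in 612 to 619 stood against 3.62 and 5.81 in 650 to 663. Gluconeogenesis and ammonia production had 0 of 12 past the test (median -0.10), with G6pc, the last enzyme of glucose release, at -0.53 ± 0.17 (adjusted p = 0.0964). Insulin, FoxO and amino acid response had 0 of 16 (median 0.02), with the serine synthesis gene Psat1 at -0.67 ± 0.21 (adjusted p = 0.0963). Lipogenesis had 0 of 16 (median -0.02).

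Among the feeding lists only cholesterol synthesis held calls. Of 14 tested genes 2 fell, beside 1.81% of all genes, 0 rose and 12 did not pass, 13 of 14 lay lower and the median was -0.18. Nsdhl, a sterol dehydrogenase late in the pathway (93868_at, chromosome X), read 6.96 and 7.21 in TG and 6.80 and 7.02 in WT animals of 612 to 619, against 7.88, 7.99 and 7.86 in TG and 7.64, 8.26 and 8.24 in WT animals of 650 to 663. All animals of 612 to 619 lay below all of 650 to 663, and Nsdhl was 1.97-fold lower (-0.98 ± 0.14, adjusted p = 0.0145). Both other tested probe sets that name it also fell, with log2 differences of -0.64 (adjusted p = 0.0428) and -1.49 (adjusted p = 0.0211). Fdps, which makes farnesyl diphosphate, read 7.63, 7.40, 7.38 and 7.34 in 612 to 619, against 7.70 to 8.41 with a median of 7.94 in 650 to 663. It fell by 0.60 ± 0.12 (adjusted p = 0.0325), and its other probe set, 99098_at, had the smallest adjusted p of the array (-1.06 ± 0.08, adjusted p = 0.000933). Msmo1, a sterol oxidase, differed by -0.71 ± 0.21 (adjusted p = 0.079). Nsdhl passed in 9 of 10 fits (adjusted p = 0.0556 without WT 612) and this probe set of Fdps in 4 of 10 (adjusted p = 0.11 without TG 619).

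Endoplasmic reticulum (ER) stress genes, mostly chaperones and folding enzymes, held 2 of 17 tested genes that fell (beside 1.81% of all genes), 0 that rose, 15 not past the test, 7 at an unadjusted p under 0.05 and a median of -0.21. Pdia6, an ER protein disulfide isomerase (94209_g_at, chromosome 12), read 7.86 and 7.55 in TG and 6.65 and 7.62 in WT animals of 612 to 619, against 8.82, 8.80 and 8.96 in TG and 8.42, 9.03 and 8.83 in WT animals of 650 to 663. All 4 animals of 612 to 619 lay below all 6 of 650 to 663, WT 612 lowest, and Pdia6 was 2.62-fold lower (-1.39 ± 0.20, adjusted p = 0.0145). Its other probe sets fell as well, with log2 differences of -2.01 (adjusted p = 0.0211) and -0.73 (adjusted p = 0.0262). Hspa5, which encodes the ER chaperone BiP, read 11.97, 11.94, 11.83 and 11.45 in 612 to 619, against 12.10 to 12.94 with a median of 12.48 in 650 to 663 (-0.71 ± 0.17, adjusted p = 0.0493). Creld2, Manf and Pdia3, also ER stress genes, differed by -0.82 ± 0.21, -0.61 ± 0.17 and -0.45 ± 0.13 (adjusted p = 0.0557, 0.0755 and 0.0792). Pdia6 passed in 9 of 10 fits (adjusted p = 0.0584 without TG 619), and Hspa5 in 1 of 10 (adjusted p = 0.129 without WT 612).

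Both ER genes that fell hold the ER stress element in their promoters, which is why these are shown. The element, through which ATF6 acts, was searched on both strands as CCAAT and CCACG separated by 9 bases of any kind, and overlapped no other motif searched. It was found at 37 of 27025 genes of the table (0.137%), at 9 of 4314 tested genes (0.209%) and at 2 of 79 lower genes with an entry, Pdia6 and Hspa5. Creld2 holds it on the other strand. Pdia6 and Hspa5 come from a list of ER stress genes, so their matches are no test of that list. A match describes the letters and is no evidence of binding or of ATF6 acting here. The fixed letters are in capitals for Hspa5 (chr2:34771840-34772139, plus strand) and Pdia6 (chr12:17266339-17266638, plus strand).
Hspa5: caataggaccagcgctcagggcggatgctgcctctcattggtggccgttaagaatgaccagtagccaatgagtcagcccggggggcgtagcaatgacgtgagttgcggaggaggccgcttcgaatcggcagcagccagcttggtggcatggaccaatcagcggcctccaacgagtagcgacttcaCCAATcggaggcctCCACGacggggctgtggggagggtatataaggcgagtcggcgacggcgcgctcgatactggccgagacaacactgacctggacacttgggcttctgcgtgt
Pdia6: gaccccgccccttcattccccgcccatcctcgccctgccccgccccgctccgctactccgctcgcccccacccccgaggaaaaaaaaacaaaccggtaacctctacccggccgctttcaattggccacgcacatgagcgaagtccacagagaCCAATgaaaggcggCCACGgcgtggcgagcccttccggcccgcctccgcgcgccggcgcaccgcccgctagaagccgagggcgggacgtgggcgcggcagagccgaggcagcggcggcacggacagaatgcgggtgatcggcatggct

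**Figure D4:**
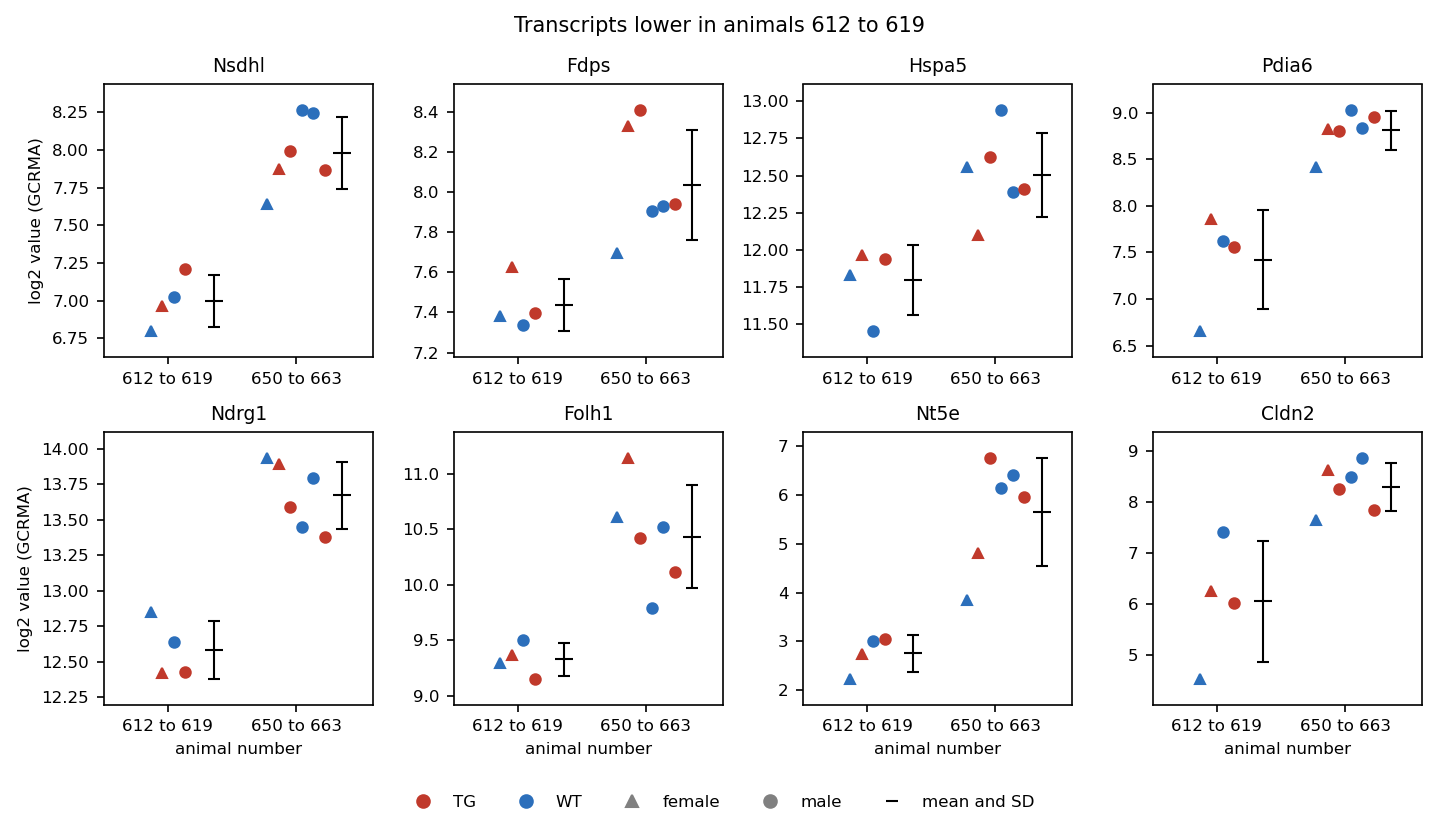
Log2 values of 8 transcripts lower in animals 612 to 619, drawn left of animals 650 to 663 in each panel, TG in red, WT in blue, triangles for females, circles for males, and black bars for the mean and SD of 4 and 6 animals. In none of the 8 panels do the ranges overlap, and Nt5e shows all 4 animals of 612 to 619 under the floor.

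Cytosolic and mitochondrial heat shock genes had 0 of 23 past the test and 17 lower, with a median of -0.10. Dnaja1 and Hsp90aa1, a cochaperone and the inducible HSP90, came closest (-0.58 ± 0.15, adjusted p = 0.0627, and -0.54 ± 0.15, adjusted p = 0.0682). Of 20 immediate early genes, which answer stimulation within minutes, 0 passed, 18 lay higher and the median was 0.22. Ier2 read 7.51, 7.44, 7.36 and 6.73 in 612 to 619, against 4.97 to 6.97 with a median of 5.75 in 650 to 663, with WT 650 inside the lower range (1.44 ± 0.37, adjusted p = 0.0589). Egr1 differed by 1.34 ± 0.54 (adjusted p = 0.174) and Jund by 0.26 ± 0.09 (adjusted p = 0.12). In the first chip lot, against WT 650 alone, Ier2 differed by 0.07 and Egr1 by -0.48. Fos, Fosb and Atf3 were among 9 under the filter.

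Glucocorticoid targets had 0 of 20 past the test, 15 higher and a median of 0.27. The lipocalin gene Lcn2, which also marks tubular injury, read 9.52 and 10.20 in TG and 5.75 and 5.78 in WT animals of 612 to 619, against 7.67, 8.35 and 8.84 in TG and 5.37, 5.60 and 5.80 in WT animals of 650 to 663. Every TG animal lay above every WT animal, and between ranges Lcn2 did not pass (0.87 ± 0.31, adjusted p = 0.128). Klf9, a glucocorticoid-induced factor with a daily rhythm, differed by 0.49 ± 0.18 (adjusted p = 0.144), and its other probe set by -0.73 (adjusted p = 0.111). Of 16 hypoxia genes 1 rose, 1 fell and 14 did not pass (median -0.12). Ndrg1, a hypoxia-responsive gene (96596_at, chromosome 15), read 12.42 and 12.43 in TG and 12.85 and 12.64 in WT animals of 612 to 619, against 13.89, 13.59 and 13.38 in TG and 13.94, 13.45 and 13.79 in WT animals of 650 to 663. Its highest value in 612 to 619 lay below its lowest in 650 to 663, and Ndrg1 was 2.12-fold lower (-1.09 ± 0.13, adjusted p = 0.00885), with a difference of -1.20 at its other probe set (adjusted p = 0.00359). Hif1a, which encodes the oxygen-regulated subunit of HIF-1, rose by 0.54 ± 0.11 (adjusted p = 0.0366), and by 0.48 at its other probe set (adjusted p = 0.0446). Hif1a passed in 3 of 10 fits (adjusted p = 0.11 without WT 612).

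Oxidative stress genes had 0 of 23 past the test and a median of -0.07, with the superoxide dismutase gene Sod1 at 0.41 ± 0.11 (adjusted p = 0.0609) and the glutathione transferase gene Gstm1 at 0.31 ± 0.08 (adjusted p = 0.0682). Metallothioneins and zinc transport had 0 of 6 (median 0.16), cold-inducible RNA-binding proteins 0 of 2 (0.15), and tubular injury 0 of 14 (0.07).

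**Figure D5:**
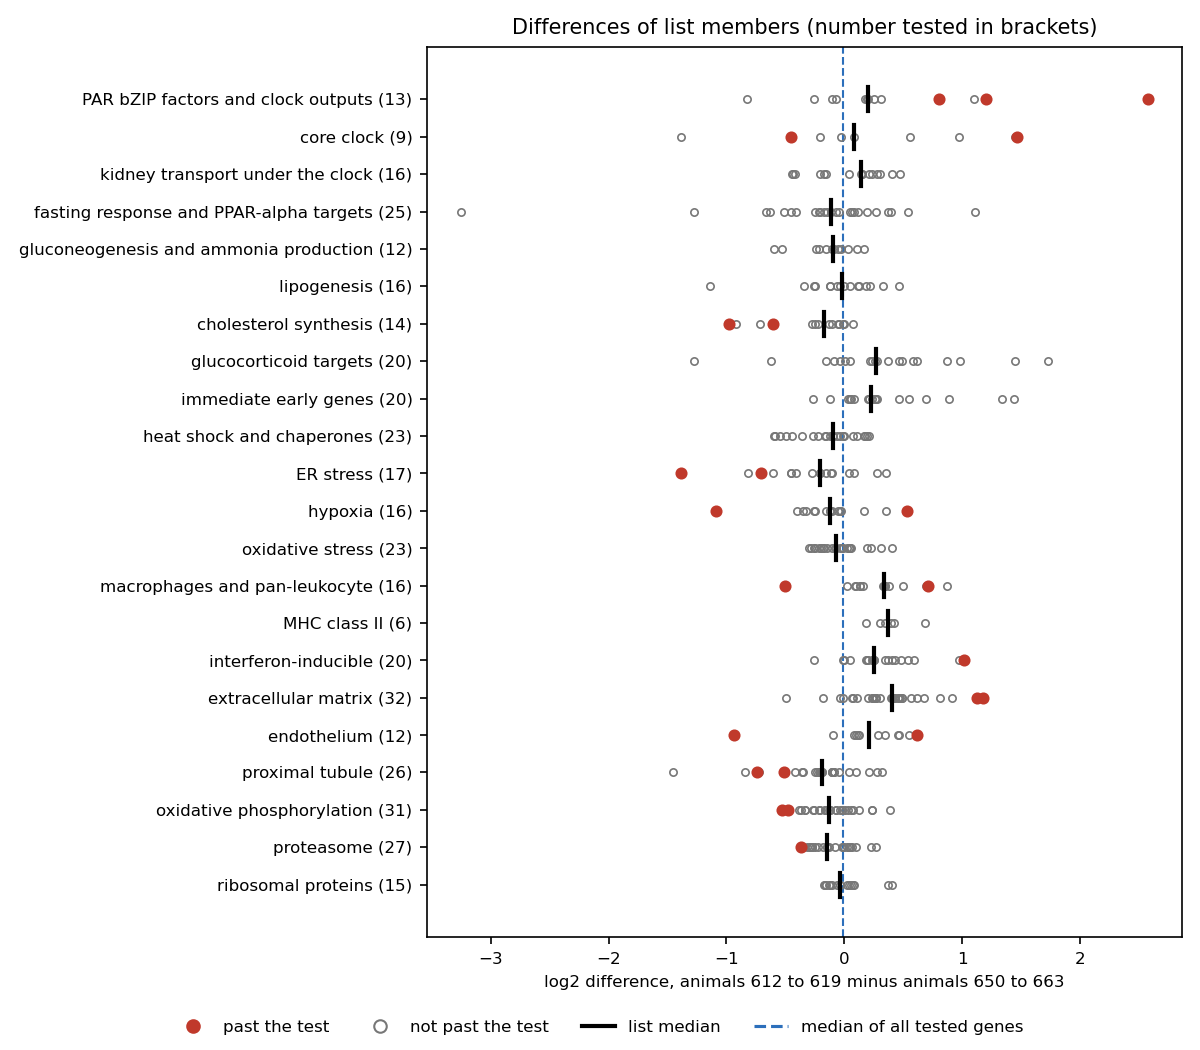
Log2 differences (x axis, animals 612 to 619 minus animals 650 to 663) of the tested members of 22 gene lists, 1 point per gene, filled red where the gene passed the test and open where it did not, with a black bar at each list's median and a dashed line at the median of all tested genes (-0.01). Medians run from -0.21 for ER stress to 0.40 for extracellular matrix, and most members of every list did not pass.

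Immune genes held few calls. Of 16 tested macrophage and pan-leukocyte markers 1 rose, 1 fell, 14 did not pass, 15 lay higher and the median was 0.33. The mean log2 level of these 16 ran from 5.81 to 7.56 in 612 to 619 and from 6.02 to 6.74 in 650 to 663, so the ranges overlapped. Laptm5, a lysosomal protein of blood cells, read 7.54 and 8.17 in TG and 7.50 and 7.51 in WT animals of 612 to 619, against 6.89, 7.29 and 6.95 in TG and 6.70, 7.05 and 6.94 in WT animals of 650 to 663. Its ranges lay apart, with TG 619 highest. Laptm5 rose by 0.71 ± 0.14 (adjusted p = 0.0361), and by 0.88 at its other probe set (adjusted p = 0.0297). Fcgr2b, the inhibitory Fc receptor, fell by 0.51 ± 0.11 (adjusted p = 0.0415). The defining markers Cd68, Adgre1, Itgam and Aif1 were among 13 under the filter. Of 10 measured neutrophil markers 0 were over the filter, and lymphocyte markers had 0 of 6 past the test, with the immunoglobulin gene Ighm at 0.43 ± 0.11 (adjusted p = 0.0631). Without TG 619 Laptm5 had an adjusted p of 0.093.

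Of 20 interferon-inducible genes 1 rose, 0 fell, 18 lay higher and the median was 0.25. Iigp1, an interferon-inducible GTPase (96764_at, chromosome 18), read 8.30 and 7.77 in TG and 7.54 and 6.57 in WT animals of 612 to 619, against 6.92, 6.85 and 6.54 in TG and 6.54, 6.24 and 6.08 in WT animals of 650 to 663. It was 2.02-fold higher (1.01 ± 0.21, adjusted p = 0.038), although WT 618 lay within the higher range, and its other probe set differed by 0.30 (adjusted p = 0.286). MHC class II genes had 0 of 6 past the test and 6 of 6 higher (median 0.37), with H2-Aa at 0.68 ± 0.21 (adjusted p = 0.0964). Antigen processing had 0 of 9 and 8 higher (median 0.20), with the immunoproteasome gene Psmb8 at 0.64 ± 0.18 and the peptide transporter gene Tap2 at 0.64 ± 0.20 (adjusted p = 0.077 and 0.0932). Tap2 lay under the floor in 1 animal of 612 to 619 and 4 of 650 to 663. Raising those values to 4 gave it a difference of 0.48. Cytokines, chemokines and NF-kB targets had 0 of 10 (median 0.29), among them Cxcl12 at 0.58 ± 0.18 (adjusted p = 0.0896) and Vcam1 at 0.84 ± 0.31 (adjusted p = 0.135). In WT animals Vcam1 differed by 0.11, H2-Aa by 0.25, Psmb8 by 0.35, Cxcl12 by 0.38, Tap2 by 0.51 and Iigp1 by 0.77. In the same order, the differences in TG animals were 1.58, 1.12, 0.92, 0.78, 0.77 and 1.26. The interaction test given below called 0 of the genes named. Complement and acute phase genes had 0 of 11 (median -0.03), with the fibrinogen chain gene Fga at -0.55 ± 0.18 (adjusted p = 0.101). Iigp1 passed in 2 of 10 fits (adjusted p = 0.112 without WT 612).

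Extracellular matrix had the highest median of the lists with over 10 tested genes, at 0.40. Of its 32 genes 2 rose, beside 1.34% of all genes, 0 fell, 30 did not pass, 28 lay higher and 11 had an unadjusted p under 0.05. Col1a1, a chain of type I collagen (94305_at, chromosome 11), read 8.76 and 9.55 in TG and 8.07 and 7.90 in WT animals of 612 to 619, against 7.14, 7.42 and 7.56 in TG and 7.42, 7.0 and 7.82 in WT animals of 650 to 663. It was 2.26-fold higher (1.18 ± 0.27, adjusted p = 0.0467), with TG 619 highest, and without TG 619 its adjusted p was 0.116. The transgene of these mice runs from a collagen promoter, and the TG animals of both ranges carry it. Col15a1, a collagen of basement membrane zones, rose by 1.12 ± 0.24 (adjusted p = 0.0381), with WT 618 at 6.74 just under WT 663 at 6.75. By genotype, Col1a1 differed by 0.57 in WT and 1.78 in TG animals, and Col15a1 by 0.54 and 1.70. In the first chip lot alone Col1a1 differed by 0.56 and Col15a1 by 0.49. Col4a1, a basement membrane collagen, did not overlap between ranges (0.40 ± 0.11, adjusted p = 0.0682). The mean log2 level of the 32 genes ran from 6.77 to 7.82 in 612 to 619 and from 6.88 to 7.18 in 650 to 663. Beside this list the actin 3' minus 5' difference was higher too, at 2.75 ± 0.50 against 2.05 ± 0.21, and with it as a covariate Col1a1 differed by 1.37 (adjusted p = 0.998).

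Endothelial and proximal tubule markers held 2 calls each, beside 1.34% of all genes called higher and 1.81% called lower. Among 12 endothelial markers Eng, an endothelial coreceptor of the TGF-beta family, rose by 0.62 ± 0.13 (adjusted p = 0.038), while Sox18, an endothelial transcription factor, fell by 0.94 ± 0.22 (adjusted p = 0.0481; other probe set -0.35, adjusted p = 0.401). With the actin covariate Eng differed by 0.21 and Sox18 by -0.56. The other 10 endothelial markers did not pass, and the median was 0.21. Of 26 proximal tubule markers 2 fell, 0 rose, 24 did not pass and 21 lay lower (median -0.19). Lrp2, the endocytic receptor megalin, read 12.58, 12.10, 12.27 and 12.24 in 612 to 619, against 12.63 to 13.01 with a median of 12.77 in 650 to 663 (-0.51 ± 0.12, adjusted p = 0.0459), and the imino acid transporter gene Slc6a20b fell by 0.74 ± 0.16 (adjusted p = 0.044). The mean log2 level of the 26 ran from 10.70 to 11.25 in 612 to 619 and from 10.84 to 11.37 in 650 to 663. Thick ascending limb and distal tubule markers had 0 of 13 past the test, with the growth factor gene Egf at -0.70 ± 0.20 and the prostaglandin receptor gene Ptger3 at -0.95 ± 0.32 (adjusted p = 0.0806 and 0.116). Eng, Sox18, Lrp2 and Slc6a20b passed in 2, 2, 1 and 2 of 10 fits, and with 1 animal left out their highest adjusted p was 0.0919, 0.143, 0.142 and 0.116.

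No call fell among markers of the remaining cell types and tissues, namely collecting duct and intercalated cells (8 tested, median 0.31), medulla and osmotic response (8, 0.11), urothelium (5, 0.52), podocytes (7, 0.20), smooth muscle and renin cells (9, -0.03), adipose (9, -0.15), blood (4, -0.02), liver (8, -0.12), adrenal (1, -0.03) and skeletal muscle (1, 0.41). Under the filter were the adrenal markers Star, Cyp11a1 and Th, the muscle markers Acta1 and Ckm, and the fat cell marker Adipoq. Androgen-sensitive kidney genes had 0 of 11 past the test (median -0.33) and the 1 tested sex-linked gene did not pass.

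Among housekeeping lists, 9 of 31 oxidative phosphorylation genes did not overlap, beside 6.78% of all genes (median -0.13). Of the 31, 2 fell, beside 1.81% of all genes, 0 rose and 29 did not pass. The 2 were the complex I subunit genes Ndufs1 (-0.53 ± 0.12, adjusted p = 0.0442) and Ndufs4 (-0.48 ± 0.11, adjusted p = 0.0462). Of 27 proteasome genes Psma2, a core subunit gene, fell by 0.36 ± 0.08 (adjusted p = 0.0397) and 26 did not pass (median -0.14). Ribosomal protein genes had 0 of 15 past the test (median -0.04), with Rpsa at 0.40 ± 0.11 and Rps24 at 0.37 ± 0.10 (adjusted p = 0.0633 and 0.0723). Of 16 cell cycle genes Ccnd3, a D-type cyclin gene, rose by 0.48 ± 0.10 (adjusted p = 0.0407). The FGF23, phosphate and vitamin D axis had 0 of 17 past the test (median 0.04), with the FGF receptor genes Fgfr4 at -0.53 ± 0.14 and Fgfr1 at 0.40 ± 0.12 (adjusted p = 0.0682 and 0.0896). With the actin covariate Ndufs1 differed by -0.26 and Ndufs4 by -0.16. Ndufs1, Ndufs4 and Psma2 each passed in 1 of 10 fits.

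Beyond the lists, the largest falls included surface and junction proteins of the tubule. Nt5e, the surface enzyme CD73 that makes adenosine (93202_at, chromosome 9), read 2.73 and 3.04 in TG and 2.23 and 3.01 in WT animals of 612 to 619, against 4.82, 6.75 and 5.95 in TG and 3.84, 6.15 and 6.40 in WT animals of 650 to 663. All 4 animals of 612 to 619 and WT 650 lay under the floor. The difference of -2.90 ± 0.52 (adjusted p = 0.0277) shrank to -1.68 when every value under the floor was raised to 4, to -1.03 with chip lot in the model and to -1.22 in the first lot alone. Cldn2, the cation-permeable claudin of the proximal tubule, read 6.26 and 6.01 in TG and 4.53 and 7.41 in WT animals of 612 to 619, against 8.63, 8.25 and 7.84 in TG and 7.64, 8.49 and 8.86 in WT animals of 650 to 663. It fell by 2.23 ± 0.48 (adjusted p = 0.0407), WT 612 lowest, and without TG 619 its adjusted p was 0.117. With the actin difference as a covariate Cldn2 differed by -0.89 (adjusted p = 0.998). Cldn8, a claudin of the distal nephron, fell by 1.01 ± 0.21 (adjusted p = 0.0392), with TG 614 above the 3 WT animals of 650 to 663, and differed by -0.64 within station 1. Folh1, a brush border carboxypeptidase, read 9.37, 9.15, 9.29 and 9.50 in 612 to 619, against 9.79 to 11.15 with a median of 10.47 in 650 to 663. The ranges did not overlap (-1.11 ± 0.23, adjusted p = 0.0379), and its other probe set differed by -1.05 (adjusted p = 0.0415).

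Slc16a1, the lactate and pyruvate transporter MCT1, fell by 1.26 ± 0.21 (adjusted p = 0.0248), with WT 618 at 4.87 above TG 652 at 4.56. Gnmt, which methylates glycine, read 6.84, 7.29, 6.61 and 7.90 in 612 to 619, against 8.14 to 8.71 with a median of 8.36 in 650 to 663 (-1.22 ± 0.23, adjusted p = 0.0309). Habp2, a secreted serine protease, fell by 1.27 ± 0.21 (adjusted p = 0.0223), and Tfpi2, a protease inhibitor, fell by 1.01 ± 0.21 (adjusted p = 0.0381). The ranges did not overlap for Gnmt, Habp2 or Tfpi2. BC031181, a gene without a name of its own, fell by 1.09 ± 0.15 (adjusted p = 0.0145) and passed in 9 of 10 fits (adjusted p = 0.0579 without TG 619). Rab5if, named for its interaction with RAB5, fell by 1.01 ± 0.23 (adjusted p = 0.045), with WT 618 inside the higher range.

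The largest rises beside Dbp, Per2 and the collagens were in genes of varied function. Bcat1, the cytosolic branched-chain aminotransferase, read 8.19 and 7.02 in TG and 6.60 and 6.46 in WT animals of 612 to 619, against 5.01, 6.49 and 6.48 in TG and 5.07, 5.46 and 5.31 in WT animals of 650 to 663. The ranges overlapped, since TG 657 and TG 661 lay just above WT 618 (1.43 ± 0.32, adjusted p = 0.0442). Sdc4, the heparan sulfate proteoglycan syndecan-4, read 8.17, 8.84, 9.48 and 9.29 in 612 to 619, against 7.20 to 8.09 with a median of 7.75 in 650 to 663, and its ranges did not overlap (1.27 ± 0.25, adjusted p = 0.0361; 0.62 with the actin covariate). Fam3c, a secreted factor, rose by 0.93 ± 0.18 (adjusted p = 0.0331) at 97770_s_at but differed by 0.03 and -0.08 at its other probe sets. Snw1, a splicing and transcription cofactor, rose by 0.89 ± 0.14 (adjusted p = 0.021). Mtm1, the phosphoinositide phosphatase myotubularin, rose by 0.88 ± 0.18 (adjusted p = 0.038) and differed by -0.30 at its other probe set (adjusted p = 0.214). Tmem250-ps, annotated as a pseudogene, rose by 0.90 ± 0.15 (adjusted p = 0.0227), with WT 650 at 8.80 inside the lower range. Snw1 passed in 6 of 10 fits, Sdc4 and Fam3c in 3 and Bcat1 in 1.

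Genes whose values followed Dbp most closely over the 10 arrays were sought as a description, since the gap between ranges sets much of any such correlation. The highest Pearson correlations were those of Tspan4 (0.943), Plxnd1 (0.921), Ube3a (0.91), Mrtfa (0.909) and Ngef (0.896). Plxnd1, a semaphorin receptor (97967_at, chromosome 6), read 7.18 and 7.30 in TG and 7.26 and 7.14 in WT animals of 612 to 619, against 6.40, 6.53 and 6.44 in TG and 6.52, 6.40 and 6.47 in WT animals of 650 to 663. The ranges did not overlap, with SDs of 0.07 and 0.06 (0.76 ± 0.07, adjusted p = 0.00359). Within the 6 animals of 650 to 663, its correlation with Dbp was -0.193, while that of Ube3a, a ubiquitin ligase gene, was 0.975. The lowest correlations were those of Ndrg1 (-0.961), Folh1 (-0.951), Ndufa9 (-0.95), Pdhb (-0.948) and Frg1 (-0.939), and within the 6 animals they were -0.984, -0.907, -0.874, -0.675 and -0.837. Mrtfa, a coactivator of serum response factor, and Ngef rose (0.43 ± 0.09, adjusted p = 0.0348, and 0.48 ± 0.10, adjusted p = 0.0381), and Pdhb, a pyruvate dehydrogenase subunit gene, fell (-0.31 ± 0.07, adjusted p = 0.0469).

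Whether the genotype difference itself differed between the ranges was tested by an interaction term. Of 6814 probe sets 0 (0%) passed by limma, 279 had an unadjusted p under 0.05 and the smallest adjusted p was 0.189. That smallest value belonged to Cd52, a leukocyte surface glycoprotein gene, which read 6.35 and 6.83 in TG and 4.67 and 4.23 in WT animals of 612 to 619, against 4.57, 4.81 and 4.74 in TG and 4.59, 4.54 and 4.67 in WT animals of 650 to 663. Only the TG animals of 612 to 619 lay above 5. The genotype difference of Cd52 was larger by 2.03 in 612 to 619. Among genes taken once each, by the probe set with the highest mean, next by unadjusted p came Col14a1, a fibril-associated collagen gene, and Tgfb1, the cytokine gene, whose genotype differences were larger by 0.88 and 0.97 in 612 to 619 (adjusted p = 0.593 and 0.782). All 245 probe sets called between ranges had the same direction in TG and in WT animals. For the 181 of them without overlap between ranges this had to be so. The other calls also rest on the difference taken over both genotypes, so the shared direction is no separate support. With 5 animals of 1 genotype alone 0 passed, with 866 at an unadjusted p under 0.05 in TG and 817 in WT.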

How the data were processed

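Kidney RNA of 10 mice was measured on MG_U74Av2 arrays, 1 per animal. The authors deposited 1 value per probe set and array, with GCRMA named in the submitters' processing notes (no version given). Their range is that of log2 values, and the deposited log2 values were used without further change. Chip lot, fluidics station, order of days and chip type came from the run records, per the file headers. Sample groups came from the titles, because the genotype field reads transgenic for every sample. The members, gene lists and most tests were chosen with earlier results of these data known. The 46 gene lists hold 974 genes.

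Of 12488 probe sets 66 are controls, 10833 name 1 gene, 396 several and 1193 none, by the platform annotation. Against RefSeq names 0 symbols changed and 16 found no match. The filter kept 6814 probe sets (5295 genes) and removed 5608. Of the 245 called probe sets 29 name no single gene. The range was tested by limma 3.58.1 in R 4.3.3 (lmFit, eBayes, range and genotype in the model, two-sided, Benjamini-Hochberg over all 6814), and errors of differences are its standard errors. Errors of means are SD with n = 4 and 6. Control measures were permuted exactly over 100 assignments within genotype. Steps were tested on simulated data. Named were the marker genes, the 12 largest rises and falls past the threshold, in each list up to 4 called genes or otherwise the 2 with the smallest p, 3 genes by interaction and 10 by correlation with Dbp. Per1, Nr1d1, Nr1d2, Usp2, Nfil3, Pdk4, Cyp4a12b, Manf, Creld2, Pdia3, Msmo1, Egr1, Col4a1 and the genes listed as under the filter are additions to that rule, picked with their values already in view. So was the choice of lists given by counts alone, and the floored differences. Female was set at Xist over 6. Alternatives are given in the closing section. Python 3.11.15 with matplotlib 3.10.9 made the figures. Probe-level image files were not used here.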

Additional observations from a re-analysis of the deposited data

Results flagged for a closer look

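Within each range, 204 sets of 4 or 6 values (the genes named and the control measures) were searched for 1 animal standing apart by Dixon's criterion, which chance meets in about 1 of 20 sets. It was met by 6 sets (2.94%). In 612 to 619, TG 619 stood at 8.17 for Laptm5, with the other 3 animals at 7.50 to 7.54, and WT 618 stood at 4.87 for Slc16a1, with the others at 3.84 to 3.996. In 650 to 663, WT 650 stood apart in 3 sets: 8.80 for Tmem250-ps against 7.87 to 8.16 in the other 5, 8.42 for Pdia6 against 8.80 to 9.03, and 6.19 for the pyruvate carboxylase 3' minus 5' difference against 4.12 to 4.58. In each of the 3 it lay on the side of 612 to 619, whose chip lot it shares. Elsewhere WT 650 lay farthest from 612 to 619. It was the lowest of all arrays for 18S (7.09), Per2 (4.33) and Tef (8.67), and the highest for Ndrg1 (13.94). The cause was not tested. TG 657 stood at 5.66 for Ighm, with the others at 5.38 to 5.47.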

How the results depend on the processing

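The count of 245 probe sets stayed within 1.5 times of itself with a filter at log2 over 6 (348), trended (248) or robust (261) variances, log2 of the linear value plus 16 (344), median centring (194), males alone (212) and, chosen after seeing the data, values under log2 4 raised to 4 (250). Median centring gave 25.8% of calls higher in 612 to 619, against 38.0% as reported. The count was 160 with no filter, 1403 with array weights, 368 after quantile normalization, 119 without genotype, 727 with sex, 111 with probe sets averaged per gene, 47 at 2-fold and 7 at an adjusted p of 0.01. It was 31 in females alone, 2 with day in the model and 2 on the first day alone. The fits with day and on the first day are the same check, because each later day holds 1 array. It was 0 with lot, station or the actin difference in the model and in TG or WT animals alone. By exact permutation, where p could not go under 0.01, it was 0 as well. Others chosen after seeing the data gave 0 in the first lot alone, 0 in station 1 alone and 136 on the first day with sex in the model. With 1 animal left out it ran from 10 to 328. Genotype calls were 121, 83 without the range and 549 with sex. The interaction gave 0 under every setting run (no filter, sex in the model, each animal left out). By unadjusted p, control measures kept their side of 0.05 over all 210 assignments without genotype.

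All 44 called genes named kept their direction in every setting, which for genes whose ranges do not overlap is no sign of stability. Of these 44, 44 were still called with sex in the model, 42 after quantile normalization, 31 after median centring, 30 with probe sets averaged per gene, 24 on the first day with sex in the model, 21 in males alone, and 0 in station 1, in the first lot or with the actin difference in the model. Among genes not called, the sign turned for Ier2 (-0.0937) and Egr1 (-0.488) with lot in the model, for Fga (0.0535) with the actin difference, for Cd52 (-0.15) and Col14a1 (-0.14) in WT animals alone, for Klf9 (-0.12) with the mean of its probe sets, and in the first lot alone for H2-Aa (-0.13), Vcam1 (-0.0933), Cd52 (-0.14), Col14a1 (-0.0731) and Egr1 (-0.48). The cause was not tested. No paired analysis was possible because animal numbers are not shared between groups. The design holds 4 against 6 animals, and range, chip lot and station could be separated only through WT 650, WT 663 and TG 661.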

Other observations

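With sex in the model, 24 further genes named above passed, all with the direction reported. Arntl then fell by 1.42 on the log2 scale (limma with Benjamini-Hochberg, adjusted p = 0.0329). The heat shock genes Dnaja1 and Hsp90aa1 fell (-0.53 and -0.50, adjusted p = 0.0215 and 0.0376), as did the ER stress gene Creld2 (-0.76, adjusted p = 0.0309) and the sterol oxidase gene Msmo1 (-0.66, adjusted p = 0.0487). The growth factor gene Egf of the distal tubule fell by 0.79 (adjusted p = 0.00874) and the mitochondrial fatty acid oxidation gene Hadhb fell by 0.51 (adjusted p = 0.0299). Higher in 612 to 619 were the immediate early gene Ier2 (1.30, adjusted p = 0.0236), the superoxide dismutase gene Sod1 (0.44, adjusted p = 0.0189), the peptide transporter gene Tap2 (0.55, adjusted p = 0.0158), the cytokine gene Tgfb1 (0.69, adjusted p = 0.0417) and the ribosomal protein genes Rpsa and Rps24 (0.38 and 0.33, adjusted p = 0.0377 and 0.0295). Of these, Tap2 lay under the floor in 1 animal of 612 to 619 and 4 of 650 to 663.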
